A study of Homo sapiens with 2 samples.

Results

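The genes described here code for the proteins of the cytoplasmic ribosome. They were chosen by name, as the probes other than controls whose gene name in the files was RPL or RPS followed by a number, with or without a closing A, L or X, or was RPLP0, RPLP1 or RPLP2. Of 30413 gene names on the array after outlier flags, 80 met this rule, and 79 of these had a probe with enough signal to be counted, among 18585 gene names counted in all. HEK-293 cells, a line derived from human embryonic kidney, had been transfected with a miR-204 mimic or with a scrambled oligo as control, at 75 nM for 48 h according to the labels. RNA of both was hybridized together on 2-colour Agilent arrays. The control RNA carried Cy3 and the miR-204 RNA Cy5 on the first array, and the reverse held on the other, called the swapped array below, whose ratios were turned to run as miR-204 over control. As the labels name no second transfection, both arrays together made up 1 replicate, and no difference below was tested across conditions. The SD over the 2 arrays, given as an error below, is the spread between these arrays only. Whether the same RNA extracts were used on both is not stated, so it is not a measure of the spread between cultures.

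The small ribosomal subunit reads the mRNA, the large subunit forms peptide bonds, and the stalk proteins P0, P1 and P2 on the large subunit recruit the translation factors. Cells make these proteins in matched amounts, and their mRNAs are among the most abundant in a growing cell. Most of these mRNAs begin with a C and a run of further pyrimidines, called a terminal oligopyrimidine or TOP motif, through which the mTOR kinase controls chiefly their translation rather than their mRNA level. The study measured phosphorylation of the RPS6 protein as a readout of mTOR signalling, which the present mRNA values do not measure.

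The sequence that defined the treatment is shown first, with that of the other human miRNA sharing its seed. Of 2370 mature human miRNAs in the RefSeq table of GRCh38.p14, 2 had the same bases 2 to 8, which pair with target mRNAs and are given in capitals. They were miR-204-5p, from chromosome 9, minus strand, 70810031 to 70810052, and miR-211-5p, from chromosome 15, minus strand, 31065095 to 31065116, and 20 of their 22 bases were the same.
hsa-miR-204-5p: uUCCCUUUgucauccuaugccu
hsa-miR-211-5p: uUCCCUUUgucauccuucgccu
A target site of this seed reads AAAGGGA in an mRNA. Whether the ribosomal protein mRNAs hold such sites in their 3′ UTRs was not analysed here.

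The start of the mRNA was the sequence feature that most of these genes shared and that the name rule had not used. Starts from the RefSeq table were read for 63 of the 80 genes. The other 17, among them RPL7, RPL8, RPL30 and RPS20, were left out. The share and medians given here for ribosomal protein genes do not cover these 17, and whether they hold the motif was not analysed. A C at the first transcribed base followed by at least 4 more bases that were C or T, read on the transcribed strand, was present at a listed start of 45 of the 63 (71.4%), against 1404 of 27305 genes in the whole table (5.14%). The following lines show 10 bases before and 15 bases from the start on GRCh38.p14, with that run in capitals. RPS6 is shown for the phosphorylated protein, RPL14 and RPL34 for values toward the ends of the range, RPL26 and RPLP1 for wide gaps between the arrays, and RPS27L as the highest member, which lacked the run.
RPS6, chr9:19380222-19380246, minus strand: gaagttggccCTCTTTTCCgtggcg
RPL14, chr3:40457329-40457353, plus strand: ggtcttcttcCTTCTCgcctaacgc
RPL34, chr4:108620566-108620590, plus strand: cttttttcttCCTCTTCCggggacg
RPL26, chr17:8383179-8383203, minus strand: gcgtgtagttCTCTTCCCTTTTgcg
RPLP1, chr15:69452808-69452832, plus strand: ggcgcgagagCCCCTTTCCTCagct
RPS27L, chr15:63157463-63157487, minus strand: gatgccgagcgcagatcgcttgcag
For the 45 genes with the run, the median ratio (log2, miR-204 over control) was 0.061 on the first array, and it was -0.012 on the swapped one. The 18 genes without it had -0.015 and 0.041. The order of the 2 sets was thus opposite on the 2 arrays. The median over genes of the mean ratio of the arrays was 0.019 with the run and 0.0014 without it.

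No ribosomal protein gene differed by 2-fold between miR-204 and control RNA in the mean of the arrays with the same sign on both. The count was 0 of 79 genes lower, where 0.452% of all gene names were called, and 0 of 79 higher, where 0.151% were called. At 1.5-fold the counts were also 0 lower and 0 higher, against 2.06% and 1.44% of all gene names. The widest single differences were those of RPL17, at -0.26 ± 0.23 (SD over the 2 arrays) on the log2 scale, and RPS27L, at 0.37 ± 0.24. The other 77 of the 79 genes (97.5%) had a mean log2 ratio within 0.25 of 0, against 73.4% of all gene names. The spread over genes was an SD of 0.10 for the 79 and 0.26 for all gene names. Most gene names were dimmer than these genes, and the contrast was smaller within the brightest bin of probes. There the SD was 0.11 for ribosomal protein probes and 0.18 for the others, and 97.5% and 87.3% were within 0.25 of 0. Signal was still not matched within this bin. Its median on the log2 scale was 16.4 for ribosomal protein probes and 14.6 for the others.

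**Figure D1:**
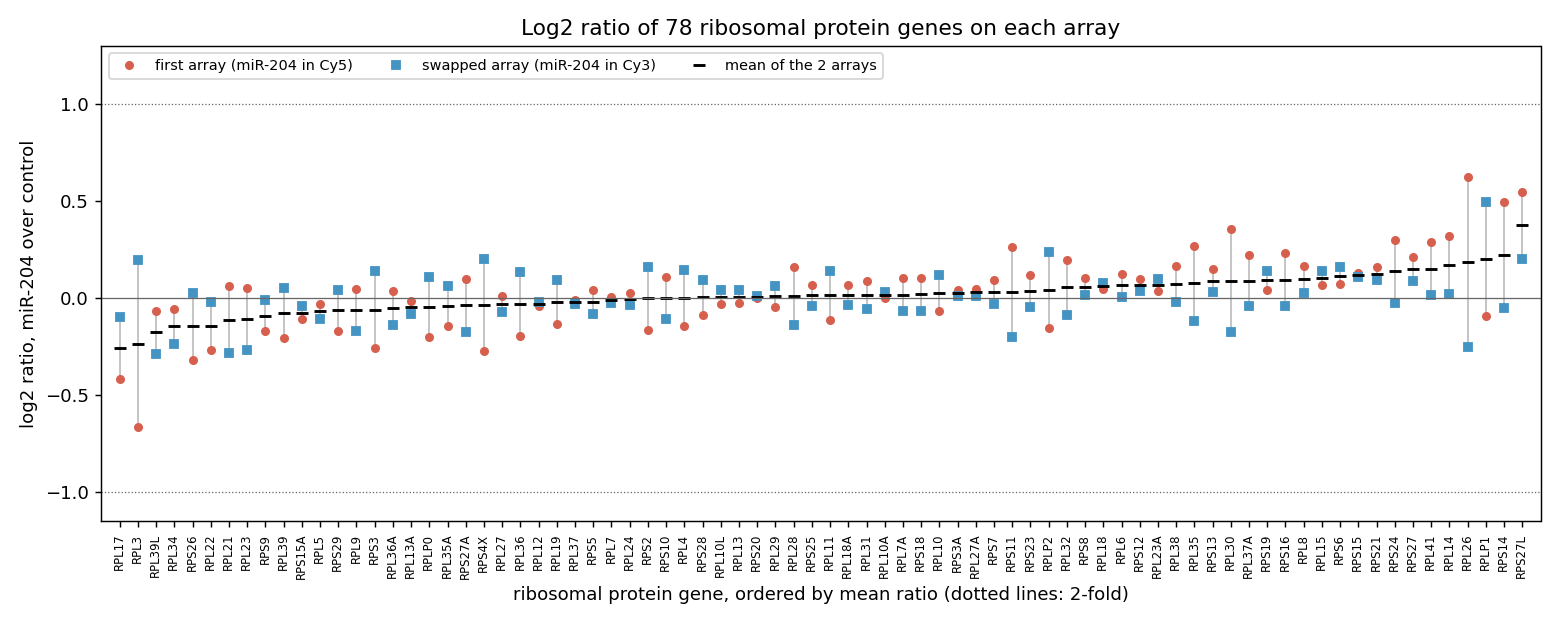
Log2 ratio of miR-204 over control (y axis) for 78 of the 79 counted ribosomal protein genes (x axis, ordered by mean), with red circles for the first array, blue squares for the swapped array, black dashes for their mean and dotted lines at 2-fold. No gene shown reached 2-fold in the mean, and the circle and the square lay on opposite sides of 0 for 48 genes.

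The genes did not lean to one side as a group. Their median log2 ratio was 0.043 on the first array, 0.011 on the swapped array and 0.014 in the mean, beside 0.021, -0.0040 and 0.0022 for all gene names. Ratios can depend on how bright a probe is, so each probe was also set against other probes in the same one of 20 bins of mean signal. Less the median of these probes of like signal, the median over ribosomal protein genes was 0.0034. With 50 bins it was 0.016, so its size depended on the width of the bins. A total of 10 genes (12.7%) were below 0 on both arrays, against 22.8% of all gene names, and 21 (26.6%) were above 0 on both, against 24.5%. The latter count was 7 with normexp background correction and loess, 4 with quantile normalization of the ratios and 13 with the series table. The remaining 48 genes (60.8%) had opposite signs on the 2 arrays, 28 of them high on the first and low on the swapped array and 20 the reverse. Of all 18585 gene names, 9791 had opposite signs or a ratio of 0 on an array. Among these, 5175 were high on the first and low on the swapped array and 4589 the reverse.

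The arrays differed from each other by more than the genes differed from 0. The size of the difference between the arrays had a median of 0.18 over the 79 genes and was over 0.25 for 29 of them. Across these genes, Pearson's r between the ratios of the 2 arrays was -0.33 and Spearman's rho was -0.37, against -0.023 and -0.055 over all 18585 gene names. This is a description across genes, which share the same 2 hybridizations and are no independent replicates. With the swapped array left unturned, the mean of the 2 arrays had an SD over the genes of 0.14, wider than the 0.10 of the mean ratio as turned. Over all gene names these SDs were 0.27 and 0.26, both wider than for the 79 genes. Among probes of the brightest bin they were 0.16 and 0.11 for ribosomal protein probes, and 0.17 and 0.18 for the others. With 1 array in each dye order, dye and other differences between the arrays cannot be told apart. Among probes of the brightest bin the correlations were -0.38 and -0.44 for ribosomal protein probes, and 0.040 and -0.033 for the others. Those others were dimmer, with a median log2 signal of 14.6 against 16.4.

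**Figure D2:**
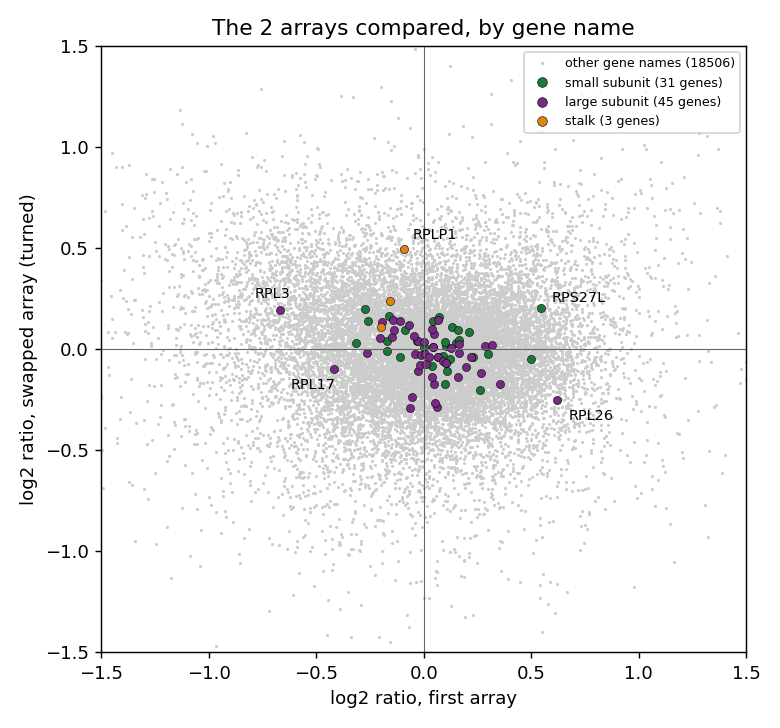
Log2 ratio of miR-204 over control on the first array (x axis) against the swapped array (y axis), with grey points for 18506 other gene names and coloured points for the small subunit (31 genes), large subunit (45) and stalk (3); both axes are cut at 1.5 in either direction. The coloured points lie near the centre, and RPL3, RPL26 and RPLP1 stand out along the direction in which the arrays disagree.

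These mRNAs gave some of the brightest probes on the array, which bears on every ratio above. Of 194 counted probes for the 79 genes, 157 (80.9%) lay in the brightest 5% of counted probes, and 192 were well above background in all 4 channels. None of them was flagged as saturated. The scanner reads bright spots from a second scan at low gain, and this was the source of the signal for 74.2% and 74.7% of the probes in control and miR-204 RNA of the first array, and for 81.4% and 63.9% on the swapped array. The software used 91.2% and 89.7% of these probes on the 2 arrays to set the balance of the dyes, against 26.4% and 27.1% of all counted probes. For the other probes of the brightest bin these shares were 94.5% and 96.6%. Low gain was the source for 49.0% and 63.6% of those other probes in control and miR-204 RNA of the first array. On the swapped array it was the source for 88.2% and 29.3% of them. For the brightest probes of all, quantile normalization leaves little room: 2 probes of RPS2 had the same rank in both channels of both arrays and hence a ratio of exactly 0. The part of brightness, scan and dye balance in the ratios was not tested.

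**Figure D3:**
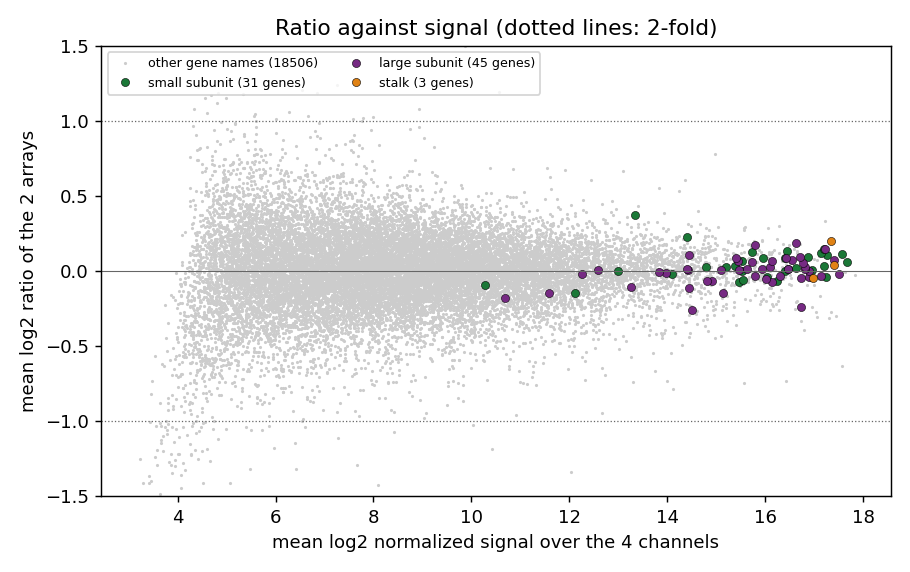
Mean log2 ratio of the 2 arrays (y axis, cut at 1.5 in either direction) against mean log2 normalized signal over the 4 channels (x axis) by gene name, with ribosomal protein genes in colour, other gene names in grey and dotted lines at 2-fold. The ribosomal protein genes lie at signals from 10.3 to 17.7, mostly at the bright end, where the grey points are also narrowly spread.

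Among the 31 counted genes of the small subunit, the median log2 ratio was 0.098 on the first array, 0.014 on the swapped array and 0.029 in the mean. Above 0 on both arrays were 12 of them (38.7%), against 24.5% of all gene names. Below 0 on both were 2 (6.45%), against 22.8%. The count above 0 over all 79 genes, 21, was 7 with normexp and loess and 4 with quantile normalization of the ratios. RPS6, the mTOR pathway's best known ribosomal substrate, had normalized signals of 187636 in control and 196996 in miR-204 RNA on the first array. On the swapped array they were 188617 and 210662. Both miR-204 channels were above both control channels, with log2 ratios of 0.070 and 0.16 and a mean of 0.11 ± 0.063. Of all gene names, 28.9% had a ratio at or above that of RPS6. How many of them had channels that did not overlap was not counted. The single RPS6 probe lies on chromosome 9 of hg18 from 19366306 to 19366365. It did not exceed the software's own error on both arrays. That error had a median of 0.20 over the ribosomal protein probes on each array.

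RPS27L, a close relative of RPS27 that is known to be induced by p53, was the highest of the 79 genes. Its normalized signal was 8875 in control and 12966 in miR-204 RNA on the first array, and 9319 and 10724 on the swapped array. The control and miR-204 channels did not overlap, and the share of all gene names for which this held was not counted. The log2 ratios were 0.55 and 0.20, and 5.43% of all gene names had a mean ratio at or above its 0.37. It rests on a single probe, on chromosome 15 of hg18 from 61234919 to 61234978, whose log2 ratio on the swapped array was the size of the error that the software gave for it, 0.20. Its mean was between 0.33 and 0.47 under the 14 other ways of processing that kept both arrays.

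RPS14 had the next highest mean of the small subunit, 0.22, but its signs differed between the arrays, with 0.50 and -0.049. Other high members of the small subunit that were above 0 on both arrays included RPS27, RPS21 and RPS15. RPS27, the ubiquitous form of the RPS27 pair, had log2 ratios of 0.21 and 0.086. RPS21, which lies on the solvent side of the subunit, had 0.16 and 0.094. RPS15, found near the decoding site, had 0.13 and 0.11, the closest agreement of the arrays among these genes.

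The low end of the small subunit was narrower, and only RPS9 and RPS15A were below 0 on both arrays. RPS26 had the lowest mean of the small subunit, -0.14, with -0.32 on the first array and 0.028 on the swapped array. RPS9, needed early in assembly of the subunit, had -0.17 and -0.012. RPS15A had -0.11 and -0.040. RPS4X, the X-linked form of RPS4, had -0.27 on the first array and 0.20 on the swapped array. RPS27A, made as a fusion with ubiquitin, had 0.098 and -0.17, and RPS18, often used as a reference gene, had 0.10 and -0.066. The signs of these last 3 genes differed between the arrays.

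The 45 counted genes of the large subunit had a median log2 ratio of 0.024 on the first array, -0.022 on the swapped array and 0.0059 in the mean. Of these, 9 (20%) were above 0 on both arrays and 8 (17.8%) were below, against 24.5% and 22.8% of all gene names. The small subunit's median was higher than that of the large subunit by 0.023 in the mean of the arrays, by 0.074 on the first array and by 0.037 on the swapped array. The SD over genes of the mean ratio was 0.10 for the small and 0.095 for the large subunit.

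RPL17, which lines the tunnel through which the new chain leaves the ribosome, was the lowest of the 79 genes. The lowest was RPL3, at -0.25, with mean signals without background correction, and RPL22, at -0.36, with the brightest probe of each gene. The normalized signal of RPL17, over 3 probes, was 24160 in control and 18062 in miR-204 RNA on the first array, and 26581 and 24828 on the swapped array. On each array the miR-204 channel was thus below its partner, but the miR-204 value of the swapped array exceeded the control value of the first. The log2 ratios were -0.42 and -0.098, and 13.3% of all gene names had a mean at or below its -0.26. The 3 probes did not give the same size. A_32_P21384 lies on chromosome 18 of hg18 from 45271171 to 45271230 and had -0.51 and -0.30. A_32_P186981, on chromosome 18 from 45269740 to 45269799, had -0.34 and 0.044. A_32_P158746, which the files place on chromosome 17 from 19341148 to 19341207 although RPL17 lies on chromosome 18, had -0.41 and -0.044. A_32_P21384 was the only one of the 194 probes (0.515%) to exceed the software's own error on both arrays with the same sign, against 10.8% of all counted probes.

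RPL39L, a testis-enriched copy of the tunnel protein RPL39, was the next lowest among genes with the same sign on both arrays, with -0.066 on the first array and -0.29 on the swapped array. RPL34, another protein of the large subunit, had -0.056 and -0.24 over 6 probes, all of which were below 0 on the swapped array and 4 of which were below 0 on the first. RPL5, which carries the 5S ribosomal RNA and can bind MDM2 to free p53, had -0.029 and -0.11. RPL13A, a common reference gene, had -0.016 and -0.081, with mean ratios of its 3 probes from -0.16 to 0.060 and a mean of 0.029 when the median over probes was taken. RPL22, mutated in some leukemias and bowel cancers, had -0.27 and -0.021 over 4 probes that disagreed with each other.

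At the high end, RPL14 had log2 ratios of 0.32 and 0.022, with 3 probes that agreed closely, from 0.28 to 0.36 on the first array and from 0.0028 to 0.038 on the swapped array. RPL41, the smallest ribosomal protein, had 0.29 and 0.014. In both genes nearly all of the mean thus came from the first array.

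The widest gaps between the arrays belonged to RPL26, RPL3 and RPLP1. RPL26, a protein near the tunnel exit that also binds the mRNA of p53, had 0.62 on the first array and -0.25 on the swapped array. RPL3, at the centre where peptide bonds form, had -0.67 and 0.19. For RPL26 the brighter signal was in Cy5 on both arrays, and for RPL3 it was in Cy3 on both. Each of the 2 probes of RPL26 and of the 3 probes of RPL3 had the signs of its gene.

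The stalk proteins had the pattern of RPL3. RPLP0 had log2 ratios of -0.20 and 0.11, RPLP2 had -0.16 and 0.24, and RPLP1 had -0.092 and 0.49, so that all 3 were low on the first array and high on the swapped array. Their means were -0.046, 0.041 and 0.20. A further RPLP0 probe, spotted 10 times and left out because of an outlier flag on a spot, had a mean log2 ratio of processed signals of -0.23 ± 0.028 (SD, n = 10 spots) on the first array and 0.0067 ± 0.023 on the swapped array. Spots of 1 probe therefore repeated within a narrow range on an array, while the 2 arrays lay further apart.

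The members with a tissue-restricted use were measured unevenly. RPL3L, the copy of RPL3 used in heart and skeletal muscle, was the only member not counted, as its probe was not well above background on both arrays in either RNA. Its processed signals were 15.5 in control and 28.6 in miR-204 RNA on the first array and 20.1 and 20.02 on the swapped array. RPL10L, a copy of RPL10 that replaces it in male germ cells, was well above background in all 4 channels, with log2 ratios of -0.031 and 0.040. Ribosomal protein genes have many processed pseudogenes, and how far a probe for one copy also binds the RNA of another was not tested.

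Where a gene had several probes, they served as a check on its ratio. This was so for 54 genes, and the SD between probes of a gene had a median of 0.098 (first array) and 0.066 (swapped array). For 23 of the 54, the mean ratios of the probes lay on both sides of 0. RPL22 had the widest range, from -0.36 for A_32_P210252 to 0.36 for A_24_P849801, whose positions on chromosome 1 of hg18, from 6168943 to 6169002 and from 6168626 to 6168685, are close to each other. RPS2 ranged from -0.25 to 0.35 over 6 probes. RPL21, with 14 probes, was lower on the swapped array for 13 of them and on the first array for 5. Its probe A_24_P280901, positioned on chromosome 13 from 26728412 to 26728461, had 0.43 and -0.075, while A_32_P184518, which overlaps it from 26728365 to 26728424, had -0.031 and -0.40. This pair of overlapping probes thus differed on both arrays, whereas the 2 RPLP1 probes, which also overlap, had mean ratios of 0.21 and 0.19.

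**Figure D4:**
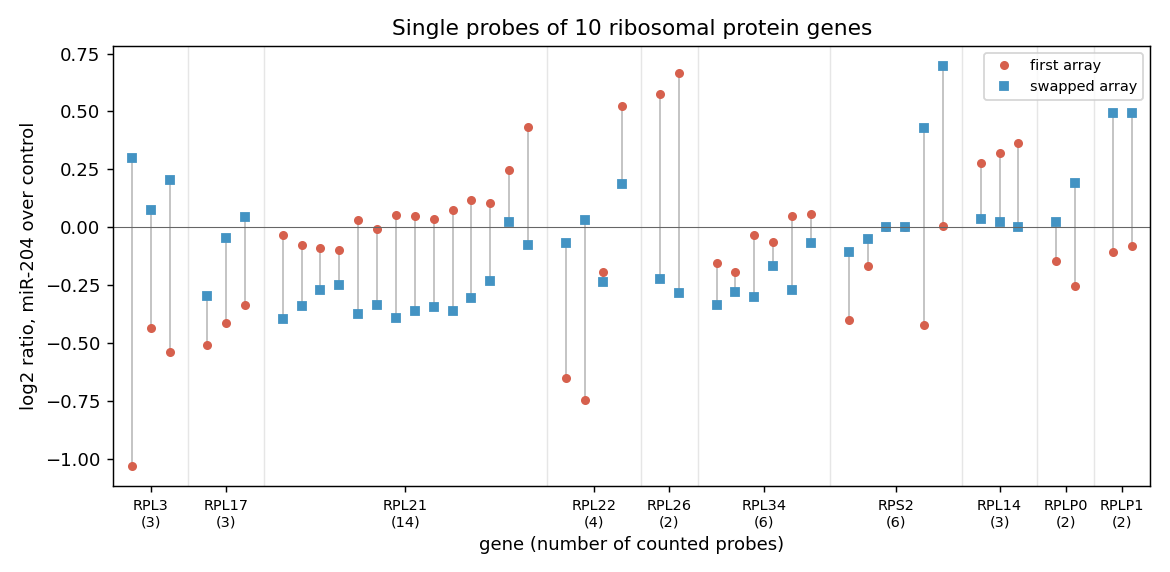
Log2 ratio of miR-204 over control (y axis) for each counted probe of 10 ribosomal protein genes (x axis, number of probes in brackets), with red circles for the first array and blue squares for the swapped array. All probes of RPL3, RPL26 and RPLP1 show the gap between arrays of their gene, whereas those of RPL22 and RPS2 spread to both sides of 0.

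The files placed 184 of the 194 probes on the chromosome of their gene and 9 probes, of RPL17, RPL21, RPL36A and RPS10, on another. The latter had a median log2 ratio of -0.14 and the former of 0.0051. Of these 9 probes, 5 were RPL21 probes with positions on chromosome 10, which were all below 0 on the swapped array, as were 8 of the 9 RPL21 probes on chromosome 13.

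Genes that work with the ribosome were read in the same way, from lists chosen by function. None of their counted members was past 1.5-fold in the mean with the same sign on both arrays, where 2.06% of all gene names were lower and 1.44% higher. The counts below of genes on one side of 0 on both arrays stand beside 22.8% of all gene names below and 24.5% above, and in lists this short nothing was read from them. Of 7 counted ribosomal proteins and copies with other names, 3 were below 0 on both arrays and 0 above, with a median of -0.045. The furthest was RPL7L1, a copy of RPL7 with a role in ribosome assembly, at -0.96 and -0.11. GNB2L1, now RACK1, a scaffold on the small subunit, had -0.42 and 0.29, and FAU, which codes for the small subunit protein eS30, had 0.32 and -0.030.

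Of 16 elongation factors and other TOP mRNAs, 4 were below and 4 above 0 on both arrays, with a median of 0.013. EEF1A1, which brings aminoacyl-tRNA to the ribosome, had 0.14 and 0.090, and EEF2, which moves the ribosome along the mRNA, had -0.084 and 0.13. PABPC1, the poly(A) binding protein, had -0.25 and -0.21. These ratios were of the size seen among the ribosomal protein genes.

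Of 32 counted ribosome assembly factors, 5 were below and 10 above 0 on both arrays, with a median of 0.019 and a wider SD over genes, 0.20. PNO1, needed for maturation of the small subunit, was the highest at 0.65 and 0.43, and NOLC1, a nucleolar chaperone, was the lowest at -0.41 and -0.34. Mean signals in this list ran from 5.4 to 16.1 on the log2 scale.

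The 8 kinases of the S6 kinase families had a median of -0.13, with 2 below and 0 above 0 on both arrays. RPS6KB1, the main kinase of RPS6, had 0.42 and -0.12, and RPS6KB2, its close relative, had -0.96 and 0.45. RPS6KA5, a kinase of the related MSK group, had -0.46 and -0.57. The 76 mitochondrial ribosomal proteins, which translate the mitochondrial genome, had a median of 0.0066, with 16 below and 19 above 0 on both arrays. Their SD over genes was 0.15, wider than that of the cytoplasmic set. Their median signal was also lower, 12.4 against 16.0 on the log2 scale, and its part in the spread was not tested.

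Among the 79 genes, 16 were on a list of genes known to be mutated in Diamond-Blackfan anemia, an inherited failure to make red cells. The list may not hold every such gene. The median of the 16 was 0.015, with 1 below 0 on both arrays, RPL5, and 4 above, among them RPS19, RPL15 and RPS27. RPS19, the gene most often mutated in this disease, had 0.043 and 0.14. The other 11 had opposite signs on the arrays.

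**Figure D5:**
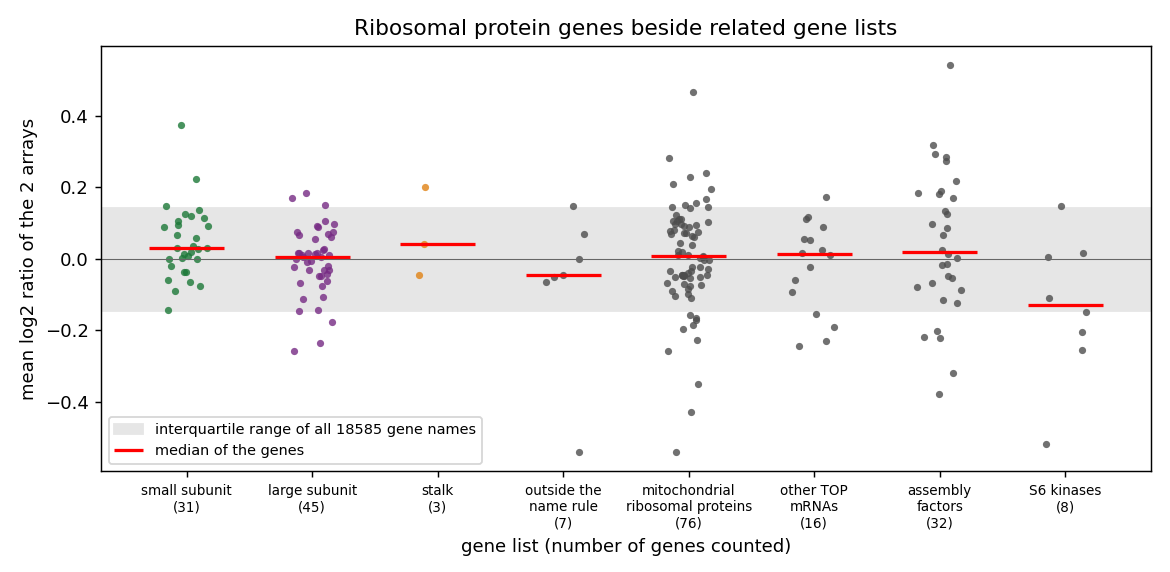
Mean log2 ratio of the 2 arrays (y axis) for each gene of the ribosomal protein groups and 5 related lists (x axis, number of genes counted in brackets), with red lines at the medians and a grey band for the interquartile range of all 18585 gene names. The medians of the small and large subunit are 0.029 and 0.0059, and the assembly factors and mitochondrial ribosomal proteins spread more widely around theirs.

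Markers of the labelled line were also read. As both RNAs came from that line, their ratios cannot check its identity. Of 9 HEK-293 markers, such as the neurofilament genes NEFM and NEFL that this line is known to express, 7 were counted. PAX2 and DCX were not. NEFM had log2 ratios of -0.71 and -0.55 and INA, a gene of neuronal intermediate filaments, had 0.78 and 0.43, both past 1.5-fold in the mean. Of 10 markers of liver, blood, endothelial, fibroblast and muscle cells on the array, 3 were counted, COL3A1, CD79A and COL1A1, each well above background in all 4 channels. The part of other cells in the ratios was not tested. Both arrays held 43376 spots other than controls, for 41000 probes, of which 25270 were counted. Precision is limited throughout by there being 2 arrays.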

How the data were processed

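The authors extracted signals from the scans with Feature Extraction 9.5.3.1. The deposited processed signals are intensity values that the authors' software had corrected for background and dye, and the deposited mean and background signals are intensity values without correction. The deposited log ratio of each array is the log10 of Cy5 over Cy3. In the series table that the authors deposited, values are log2 ratios that, set against the scanner values (r of 0.993 and 0.995), run as miR-204 over control. Its array medians were 0.0080 and -0.019, and its scaling differs from that used here (slopes of 0.874 and 1.14). Flags for spots well above background, saturation, low gain, use in dye normalization and the error of the log ratio were taken from the deposited scanner files.

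Control spots were dropped, as were 128 probes carrying an outlier flag, spots of a probe were averaged, and log2 processed signals were quantile normalized across the 4 channels with limma 3.58.1 in R 4.3.3. Probes were counted when well above background on both arrays in control or in miR-204 RNA. Genes are means over counted probes, and a call needed a mean log2 ratio of at least 1 in size, that is 2-fold, with the same sign on both arrays. Signal bins were cut over counted probes. Tables were handled with Python 3.11.15 and pandas 2.3.3. The steps were tested on simulated data.

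All 80 gene names were current symbols in the RefSeq table of GRCh38.p14. Positions of probes were taken as given in the files (hg18). The genes named are the 8 lowest and 8 highest with the same sign on both arrays and every probe measured in all 4 channels, the 3 with the widest gap between arrays, RPS6, the stalk genes, copies with restricted use, and common reference or fusion genes. Of these, 1 gene is not reported here. RPL21, RPS2, RPS14, RPS26 and single members of other lists were named after their values were seen. The genes and lists were chosen with earlier results of these data known. No test across conditions was made, as the 2 arrays are 1 replicate. The methods' t-test and limma were run over the arrays as alternatives. Other alternatives changed background correction, normalization, the deposited values used, filters, the gene summary, the threshold and the arrays used.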

Additional observations from a re-analysis of the deposited data

How the results depend on the processing

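No ribosomal protein gene was past 2-fold under any of the 22 other settings run for that count, including 1.5-fold and each array alone, where the count was 0 and 0. The settings that add a test or ask for 2-fold on each array are stricter and could not raise a count of 0. The median log2 ratio, 0.014, was 0.011 without the first array and 0.043 without the swapped array. Less probes of like signal, the median of 0.0034 was 0.0044 and 0.029 on these arrays alone and 0.025 with quantile normalization of the ratios. The gap between small and large subunit, 0.023, was 0.037 without the first array and 0.074 without the swapped array. The 21 genes above 0 on both arrays were 7 with normexp and loess, 4 with quantile normalization of the ratios and 13 with the series table. The 10 genes below 0 on both arrays were 6 with the brightest probe of each gene. The cause of these shifts was not tested. Counts over both arrays cannot be made from 1 array.

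Over the 14 settings with both arrays, RPL17 lay between -0.28 and -0.15 and RPS6 between 0.10 and 0.23, while the sign of RPL13A, RPS4X, RPS18 and RPL10L changed under some. Without the filter on signal RPL3L, at 0.47, became the highest. The methods' t-test and limma, run over arrays of 1 replicate and so not comparing the conditions, passed 0 of the 79 genes at an unadjusted threshold of 0.05, against 1192 and 843 of all gene names, and 0 of all after Benjamini-Hochberg adjustment. No paired analysis was possible because both RNAs already share each array and there is 1 replicate.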
